A study of Mus musculus with 2 samples.

Results

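The 38 genes described here encode the proteins that copy chromosomal DNA: the factors that license replication origins, the MCM helicase and its activators, the polymerases and primase, the sliding clamp and its loader, and the enzymes that supply nucleotides, join DNA and repackage it with histones. They were taken from a list of symbols and found by Ensembl identifier in the gene tables, where all 38 were present among 21474 protein-coding genes and 43346 Ensembl genes. The tissue was midbrain of mouse embryos of strain B6NCrl at embryonic day 16.5, with no genotype or treatment named. Total RNA longer than 200 nucleotides was extracted (10 ng per library) and sequenced with ERCC spike-in RNAs, which are synthetic transcripts added to the sample. The 2 libraries form 1 group of biological replicates, and for each of them male and female embryos were pooled. Replicate 2 was made from 37 embryos, the number for replicate 1 is not given, and both carry the same donor identifier.

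A cell copies its genome in S phase, after the origin recognition complex, Cdc6 and Cdt1 have loaded the ring of Mcm2 to Mcm7 onto origins in G1. Cdc45 and the GINS complex then turn the ring into an active helicase, DNA polymerase alpha with primase starts each strand, and the polymerases delta and epsilon extend them on the clamp PCNA. In the embryonic brain these genes are known as marks of dividing progenitors next to the ventricle, and most of them are turned down as neurons leave the cell cycle. Their promoters are textbook targets of E2F transcription factors, which the retinoblastoma proteins hold in check until G1 ends, while genes of mitosis are known for a separate promoter element, the cell cycle genes homology region (CHR).

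Expected counts, the estimated number of reads per gene, summed to 31830355 in replicate 1 and 36576263 in replicate 2. TPM is the abundance of transcripts after correction for length, on a scale with the same total in each library, so it can be compared between genes. A value with ± gives the mean and the SD of the 2 libraries (n = 2). Ratios between the pools are log2 of replicate 2 over replicate 1 after scaling the counts for library size, so that a negative value is lower in replicate 2, and their 95% intervals cover counting error only. With 1 group there is no contrast between conditions and no p-value, and each difference between the pools describes these 2 libraries. Of the 14412 genes whose expected counts averaged 50 or more, the intervals of 43.1% left out equality. The libraries thus differed by more than the counting error of independent reads, and the source of this was not tested. Otx2, a forebrain and midbrain transcription factor, had 56.3 TPM in replicate 1 and 64.5 TPM in replicate 2. Gata3, a transcription factor of midbrain GABA neurons, had 71.4 and 77.2 TPM. Hoxb4, a gene of the posterior hindbrain and spinal cord, was listed at 0 in both. The other midbrain genes looked up were lower: En1 had 4.99 and 6.34 TPM, Foxa2 had 1.59 and 3.43 TPM, and En2 had 0.610 and 0.460 TPM. In bulk tissue fewer cells of a type and less RNA per cell cannot be told apart.

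The promoter stretches shown next carry matches to the E2F motif. They come from RefSeq promoter windows on GRCm38.p6, which run from 250 bases before to 50 bases after each transcription start. A window was found for 31 of the 38 genes, not for Pole, Gins1, Gins2, Mcm4, Gins4, Rfc2 and Prim2. The E2F motif was searched on both strands in 4 forms, TTTCCCGC, TTTCGCGC, TTTGCCGC and TTTGGCGC, and 12 of the 31 genes held at least 1 match (38.7%), against 2.60% of all 27025 genes and 3.34% of protein-coding genes with a window. In 8 of the 12 a match lay before the RefSeq start. Their stretches are printed along the direction of transcription, with the matches in capitals.
Mcm6, chr1:128359733-128359827, minus strand: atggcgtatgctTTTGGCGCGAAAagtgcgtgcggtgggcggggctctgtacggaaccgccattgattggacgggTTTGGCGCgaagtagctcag
Mcm5, chr8:75109332-75109391, plus strand: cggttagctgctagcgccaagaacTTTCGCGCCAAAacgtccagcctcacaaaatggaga
Mcm7, chr5:138172015-138172074, minus strand: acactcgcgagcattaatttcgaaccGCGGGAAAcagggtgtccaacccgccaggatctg
Orc1, chr4:108579394-108579453, plus strand: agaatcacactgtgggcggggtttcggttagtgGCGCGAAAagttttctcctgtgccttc
Cdc6, chr11:98907987-98908046, plus strand: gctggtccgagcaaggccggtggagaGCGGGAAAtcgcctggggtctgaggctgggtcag
Gins3, chr8:95633492-95633551, plus strand: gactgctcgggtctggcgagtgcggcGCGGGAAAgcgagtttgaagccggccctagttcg
Pola1, chrX:93632260-93632319, minus strand: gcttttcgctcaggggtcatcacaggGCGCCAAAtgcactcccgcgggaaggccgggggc
Rfc3, chr5:151651209-151651268, minus strand: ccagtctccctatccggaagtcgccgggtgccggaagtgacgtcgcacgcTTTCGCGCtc

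Mcm6 held 3 matches before its start, beginning 110, 106 and 47 bases from it, and the pair farther out overlapped on opposite strands in a single run of 12 letters. Mcm5 held an overlapping pair of the same kind at 153 and 149 bases. In Orc1 and Rfc3 the match lay close to the start, at 27 and 10 bases, and in Mcm7, Cdc6 and Pola1 it lay at 165, 138 and 138 bases. Mcm3, Lig1, Pold1 and Cdt1 held matches only after the start. A match describes the letters in the window and is not a measured binding site. All starts here are those of RefSeq, and the 31 genes had 35 windows. By the GENCODE coordinates used for the genes, the stretches of Mcm7, Cdc6 and Gins3 lie inside the gene. Those of Orc1 and Rfc3 lie partly inside it.

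The other replication genes showed the E2F motif in 12 of 43 windows (27.9%), and the G1/S regulators, which are the cyclins, kinases, inhibitors and E2F and retinoblastoma factors that govern entry into S phase, in 7 of 20 (35.0%). The genes of mitosis showed it in 2 of 28 (7.14%). For the CHR element, TTTGAA, the order was the other way round: 4 of the 31 replication genes held it (12.9%), namely Cdc45, Fen1, Gins3 and Mcm2, against 20 of 28 mitosis genes (71.4%) and 20.2% of all genes. The CCAAT box was present in 20 of the 31 (64.5%), against 41.1% of all genes and 78.6% of the mitosis genes, and the GC box, GGGCGG, in 23 (74.2%, against 38.2%). The GC box was also present in 51.4% of all protein-coding genes with a window and in 82.1% of the mitosis genes, so both shares were lower in the replication genes than in the mitosis genes. Among genes with a window and a ratio, the 11 with an E2F match had a median of 16.1 and 14.7 TPM and the 19 without had 25 and 23.4 TPM.

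**Figure D1:**
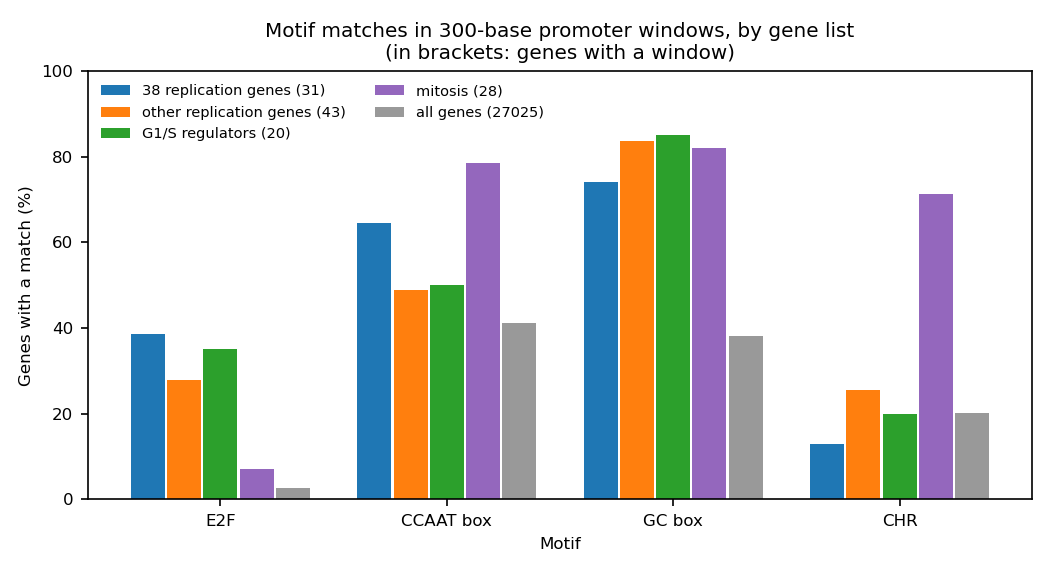
Bars give the percent of genes in each list whose 300-base promoter window holds a match to the motif on either strand, with the number of genes that have a window in brackets. The 38 replication genes stand at 38.7% for E2F against 2.60% of all genes, while the mitosis genes lead for the CHR element at 71.4%.

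All 38 genes were detected at 1 TPM or more in both libraries, a level that 62.1% of protein-coding genes reached. At 10 TPM or more in both there were 26 of 38, against 41.2% of protein-coding genes. The median of the 38 was 19.3 TPM in replicate 1 and 17.7 TPM in replicate 2 (18.5 ± 1.17), and that of all protein-coding genes was 5.25 and 5.21 TPM. For the 17550 protein-coding genes with a count in either library the median was 11.1 and 10.8 TPM. Their levels summed to 946 and 864 TPM, or 0.0946% and 0.0864% of the total. From Rfc2 at the top to Orc1 at the bottom the order spanned 85.4 ± 3.56 to 1.14 ± 0.177 TPM. Of the 37 neighbouring pairs in this order, 25 overlapped between the libraries and 12 did not.

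**Figure D2:**
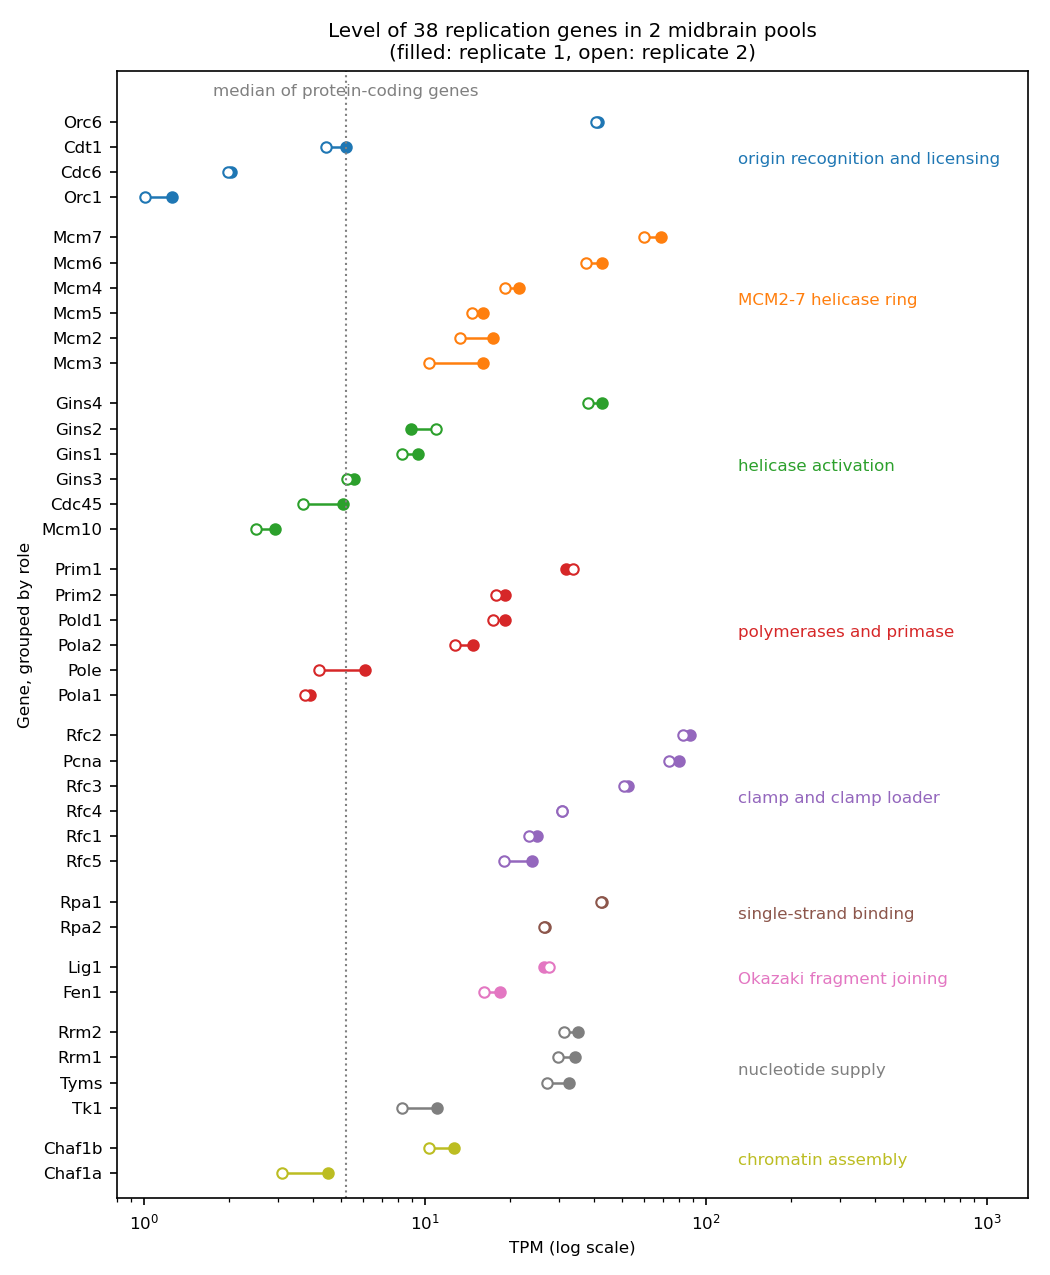
Each row is a gene, grouped by role, with its TPM on a log scale in replicate 1 (filled) and replicate 2 (open), and the dotted line marks the median of protein-coding genes at 5.23 TPM. The clamp and clamp loader genes all lie at or above 19.1 TPM, whereas Orc1, Cdc6, Cdt1, Mcm10, Cdc45, Pola1 and Chaf1a lie below the median line in both pools.

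The origin factors were the most uneven group. Orc6, the smallest subunit of the origin recognition complex (chr8:85299632-85308278), had 41.3 TPM in replicate 1 and 40.5 TPM in replicate 2. Cdt1, which brings the helicase ring to the origin, had 5.22 and 4.42 TPM, and Cdc6, the ATPase that loads it, had 2.03 and 1.99 TPM. Orc1, the largest subunit of the complex (chr4:108579423-108614833), was the lowest of all 38 at 1.26 and 1.01 TPM, from 48.5 and 46.1 counts. The mean of Orc6 was thus 36.0 times that of Orc1, and the libraries kept this order without overlap. The factor and the last rank of Orc1 depended on the estimate. With posterior mean TPM, another deposited estimate, Orc1 stood at 2.35, above Cdc6 at 2.16, and Orc6 stood at 39.8. Of the other subunits of the origin recognition complex, Orc2 and Orc5 stood between Orc1 and Orc6 at 13.5 ± 1.32 and 30.8 ± 3.07 TPM. Orc3 and Orc4 stood above Orc6 at 69.3 ± 5.04 and 74.6 ± 0.198 TPM. The ratios of Orc6, Cdc6 and Cdt1 were 0.02 (-0.10 to 0.13), -0.02 (-0.40 to 0.36) and -0.20 (-0.49 to 0.09), and none of these intervals left out equality.

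The 6 subunits of the MCM ring, which stand at equal numbers in the assembled helicase, did not have equal RNA levels. Mcm7 (chr5:138164583-138172422) was highest at 68.8 TPM in replicate 1 and 60.2 TPM in replicate 2. Mcm6 followed at 42.6 and 37.5 TPM and Mcm4 at 21.5 and 19.2 TPM, each separated from the next in both libraries. The remaining 3 lay close together: Mcm5 had 16.1 and 14.7 TPM, Mcm2 had 17.4 and 13.3 TPM, and Mcm3 had 16.1 and 10.3 TPM, with ranges that overlapped. The highest mean was 4.89 times the lowest.

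All 6 ring genes were lower in replicate 2, against 48.1% of all genes tested, and the counting interval lay below equality in 5 of them, against 20.2%. Mcm3 (chr1:20802968-20820312) had 712 counts in the shallower replicate 1 and 567 in replicate 2, a ratio of -0.51 (-0.67 to -0.35) or 1.43-fold. Mcm2 (chr6:88883474-88898780) had 1050 and 937 counts, a ratio of -0.35 (-0.48 to -0.22). Mcm6, Mcm7 and Mcm4 were lower by less, at -0.17, -0.15 and -0.13, and the interval of Mcm5 (-0.22 to 0.03) included equality. The group median was -0.16, a difference of 1.12-fold.

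Of the factors that activate the helicase, Gins4 stood apart from its partners. The 4 GINS subunits form a complex with Cdc45 and the ring, yet Gins4 had 42.5 and 38 TPM while Gins2 had 8.88 and 10.9, Gins1 had 9.43 and 8.26, and Gins3 had 5.56 and 5.27 TPM. Cdc45, the helicase cofactor (chr16:18780447-18811987), had 5.09 TPM in replicate 1 and 3.66 TPM in replicate 2, and its counts of 174 and 149 gave a ratio of -0.41 (-0.73 to -0.08). Mcm10, which binds the activated helicase, had 2.91 and 2.50 TPM, with an interval of -0.56 to 0.15. Gins2 had the highest ratio of all 37 genes measured, 0.13, with an interval of -0.05 to 0.31 that included equality.

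Among the polymerase genes the catalytic subunit of DNA polymerase alpha was far below its partners. Pola1 (chrX:93304767-93632155) had 3.89 and 3.73 TPM. Pola2, its accessory subunit, had 14.8 and 12.8 TPM, and the primase subunits Prim1 and Prim2 had 31.6 and 33.5 TPM and 19.3 and 17.9 TPM. The 4 subunits act as a single complex, and their levels did not overlap between any of them. Pold1, the catalytic subunit of polymerase delta, had 19.3 and 17.4 TPM with a ratio of -0.28 (-0.43 to -0.14), and Pole, that of polymerase epsilon, had 6.13 and 4.20 TPM. The smaller subunits of both enzymes were measured among the other replication genes: Pold2 and Pold3 had 47.1 ± 1.52 and 48.9 ± 1.05 TPM, and Pole3 and Pole4 had 51.5 ± 4.45 and 104 ± 9.19 TPM, above the catalytic subunit of their enzyme, while Pold4 (13.2 ± 0.969 TPM) and Pole2 (2.16 ± 0.0566 TPM) were below it.

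For Pole the TPM and the counts gave different pictures of the pools. Its counts were 328 and 349, a ratio of -0.09 with an interval of -0.31 to 0.13, although its TPM was 4.20 in replicate 2 against 6.13 in replicate 1. The full-length transcript Pole-201 (7163 nucleotides) held 24.3% of the gene's TPM in replicate 1 and 42.0% in replicate 2. The short transcript Pole-203 (747 nucleotides) held 33.0% and 23.1%, from 24.2 and 13.5 counts. A gene's TPM follows the length of the transcripts that its reads are given to, so the TPM differed together with the division of reads, while the counts did not differ beyond counting error.

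The sliding clamp and its loader were the highest group, with a median of 41.6 and 40.9 TPM. Pcna, the ring that holds polymerases on DNA (chr2:132249162-132253314), had 80.0 TPM in replicate 1 and 73.5 TPM in replicate 2. Rfc2, a small subunit of the clamp loader (chr5:134581366-134601805), had 87.9 and 82.9 TPM, the highest level of the 38, and its range lay above that of Pcna. Rfc3 had 52.5 and 51.0 TPM, Rfc4 had 30.7 and 30.8 TPM, Rfc1, the large subunit, had 25 and 23.4 TPM, and Rfc5 had 24 and 19.1 TPM. All 6 ratios were at or below -0.02, but only that of Rfc5, -0.27 (-0.40 to -0.15), had an interval below equality. Rpa1 and Rpa2, subunits of the protein that coats single-stranded DNA, had 42.5 and 42.1 TPM and 26.7 and 26.4 TPM, with ratios of 0.05 and 0.03. The other subunit, Rpa3, had 37.2 ± 5.46 TPM and a ratio of -0.26 (-0.46 to -0.06).

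Fen1, the nuclease that trims the flaps of Okazaki fragments, had 18.4 and 16.2 TPM and a ratio of -0.18 (-0.33 to -0.03). Lig1, the ligase that seals them, had 26.4 and 27.6 TPM and a ratio of 0.04 (-0.09 to 0.18). The 4 genes of nucleotide supply were all lower in replicate 2. Rrm1 and Rrm2, the subunits of ribonucleotide reductase, had 34.2 and 29.6 TPM and 35.0 and 31.3 TPM, with ratios of -0.17 and -0.15. Tyms, thymidylate synthase, had 32.5 and 27.2 TPM and a ratio of -0.16 (-0.30 to -0.01). Tk1, the thymidine kinase of dividing cells, had 11.0 and 8.24 TPM and the lowest ratio of the 4, -0.28, with an interval of -0.56 to 0.00 that reached equality. Its coding transcript alone had 5.16 and 5.18 TPM. Chaf1a and Chaf1b are subunits of the factor that places histones on new DNA. Chaf1a (chr17:56040439-56072289) had 4.51 and 3.09 TPM and a ratio of -0.51 (-0.78 to -0.25), or 1.42-fold, and Chaf1b had 12.7 and 10.3 TPM and -0.19 (-0.39 to 0.02).

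Of the 37 genes that passed the count minimum, 30 were lower in replicate 2, a direction that 48.1% of all genes tested shared. Orc1 was under that minimum. The median ratio was -0.13, or 1.09-fold, and the median of all genes tested was 0.01. Lower by at least 0.32 on the log2 scale were 4 of 37, namely Mcm2, Mcm3, Cdc45 and Chaf1a, against 5.34% of all genes. None was 2-fold apart in either direction, against 0.645% of all genes. The interval lay below equality in 14 of 37, against 20.2% of all genes, and above it in 0, against 22.9% of all genes. The 7 genes with a ratio above 0 were Gins2, Prim1, Pola1, Rpa1, Lig1, Rpa2 and Orc6, and all their intervals included equality. The lean to replicate 1 was thus small in size and shared by most of the genes.

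**Figure D3:**
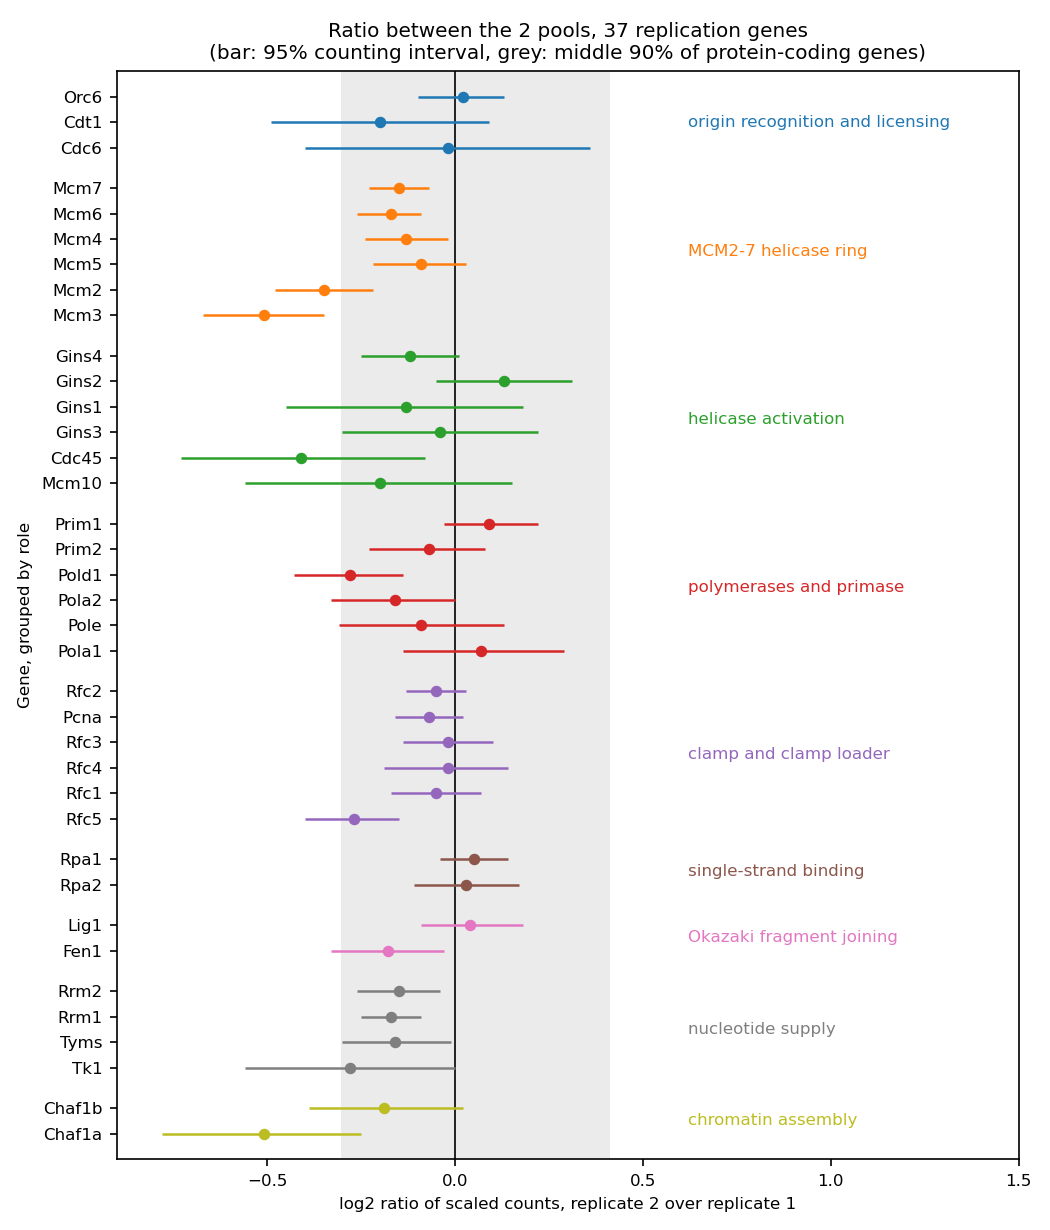
Points are log2 ratios of scaled counts, replicate 2 over replicate 1, for the 37 genes that passed the count minimum; bars are 95% counting intervals and the grey band holds the middle 90% of protein-coding genes, from -0.30 to 0.41. Only Mcm3, Mcm2, Cdc45 and Chaf1a lie left of the band, and no gene lies right of it.

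The other genes of the pathway were set beside these from lists of symbols. Of 51 other replication genes, 41 were lower in replicate 2 with a median of -0.10, 7 of them by at least 0.32. Rbbp4, a histone chaperone subunit shared by several complexes, was the highest at 247 and 221 TPM, followed by Ssrp1, a subunit of the histone chaperone FACT, at 143 and 134 TPM, and Slbp, which binds the end of histone mRNAs, at 107 and 102 TPM. The lowest ratio was that of Ticrr, which helps load Cdc45, at -0.64 (-1.19 to -0.10) from 70.0 and 51.0 counts, and it was the only gene of that list below 1 TPM in both, at 0.530 and 0.330 TPM. Mcm8, a relative of the ring genes with a part in DNA repair, had the highest ratio at 0.37 (0.10 to 0.64).

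Of 28 G1/S regulators, 22 were lower in replicate 2 with a median of -0.11. The highest were Cdk4, the kinase partner of the D cyclins, at 648 and 532 TPM, and the kinase inhibitors Cdkn1a at 112 and 144 TPM and Cdkn1c at 101 and 94.3 TPM. Ccnd1, a D cyclin, had the lowest ratio at -0.44 (-0.57 to -0.32), and Ccne1, an E cyclin, the highest at 0.50 (0.28 to 0.73). Of 64 replication-dependent histone genes, whose mRNAs are made in S phase, 13 passed the count minimum and 9 of these were lower, with a median of -0.20. That median depended on the minimum: it was -0.32 with a mean count of at least 10 and -0.33 with no minimum.

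The genes of mitosis showed the larger difference between the pools. All 33 were lower in replicate 2, 24 of them by at least 0.32, with a median of -0.37 or 1.29-fold. Their levels summed to 457 TPM in replicate 1 and 348 TPM in replicate 2. Smc2, a condensin subunit, Ube2c, a ubiquitin-conjugating enzyme of mitotic exit, and Cdk1, the mitotic kinase, were the highest at 37.7 ± 6.82, 34.1 ± 6.46 and 33.9 ± 10.6 TPM. Ratios in the list ran from -0.79 (-1.14 to -0.45) for Mybl2, a transcription factor of dividing cells, to -0.16 (-0.40 to 0.08) for Nuf2, a kinetochore protein. Top2a stands in both the mitosis and the other replication list, and without it the median of the mitosis genes was also -0.37. The difference between the lists was not tested, since there is 1 library per pool.

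**Figure D4:**
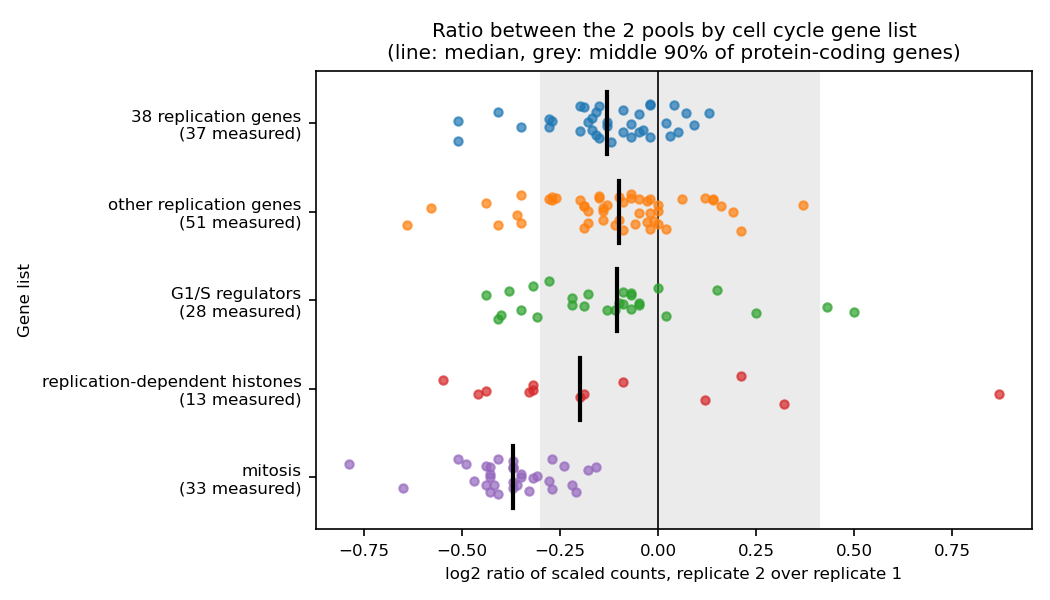
Points are log2 ratios of scaled counts, replicate 2 over replicate 1, of single genes in 5 lists; vertical lines are list medians and the grey band holds the middle 90% of protein-coding genes. The 37 replication genes centre on -0.13 and spread to both sides of 0, whereas all 33 mitosis genes lie left of 0 around -0.37.

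Marker lists of cell types also differed between the pools. Of 12 neural progenitor markers 8 were lower in replicate 2 with a median of -0.10. Their summed level was 1860 TPM in replicate 1 and 2148 TPM in replicate 2, and most of this sum was Fabp7 alone, at 1253 and 1565 TPM. Of 8 astrocyte markers measured, 1 was lower, the median was 0.62, and the list summed to 739 and 1166 TPM. The young neuron markers had a median of 0.03 (6274 and 6371 TPM), the oligodendrocyte precursor markers 0.31 (108 and 143 TPM), the microglia markers 0.16 (96.2 and 120 TPM), the endothelial markers -0.11 (193 and 180 TPM), the mural and meningeal markers -0.03 (289 and 304 TPM), and 4 measured erythroid markers -0.48 (79.3 and 69.8 TPM for the list). No marker was at 0 in both libraries. Spike-ins took 1.49% of counts in replicate 1 and 2.23% in replicate 2. The part of cell composition or input RNA in the ratios of the replication genes was not tested.

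Transcript tables gave the forms behind these levels. Of the 38 genes 29 had at least 2 annotated transcripts, and the transcript with the largest share of TPM was the same in both libraries for 27 of them. The exceptions were Pole and Fen1, where Fen1-201 led in replicate 1 at 55.8% and Fen1-202 in replicate 2 at 42.9%. For 36 genes nearly all TPM lay on transcripts of known type, and the median share on protein-coding transcripts was 93.1% in replicate 1 and 95% in replicate 2. In 20 of the 36 that share was above 90% in both libraries. For many of these the annotation fixed the share in advance. Cdc45, Fen1, Orc6, Pola2 and the genes with 1 annotated transcript had only coding forms, so they stood at 100%. The medians include these genes. In 11 of the 36, transcripts annotated as retained introns held more than 10% in both. By TPM 32 of the 36 were lower in replicate 2, and 28 were lower by the TPM of their coding transcripts alone. The same counts over all genes were not computed. These transcript counts therefore describe the replication genes without showing whether they differ from other genes.

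Tyms was the only 1 of the 36 with under 50% on protein-coding transcripts in both libraries. Its coding transcript Tyms-201 (3163 nucleotides) held 8.77% in replicate 1 and 8.23% in replicate 2, which is 2.85 and 2.24 TPM of the gene's 32.5 and 27.2. The nonsense-mediated decay transcript Tyms-205 held 38.6% and 39.0%, and the retained-intron transcripts Tyms-206 and Tyms-202 held 23.1% and 28.5% and 24.9% and 19.3%. This order of the leading form and the coding form was the same in both pools. Tyms-205 and Tyms-206 differ in length between the annotation releases, so their types are those of the later release. In counts, Tyms-201 had 162 and 148 of 808 and 823.

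Among genes with nearly all TPM on transcripts of known type, 10 others held more than 10% on retained-intron forms in both libraries. Of these, Tk1 (53.1% and 37.1%), Mcm10 (45.4% and 37.8%), Gins2 (26.1% and 41.0%), Pole (38.7% and 21.4%) and Rpa1 (27.3% and 24.7%) had the highest mean shares. Pold1 was not counted there, since 13.3% of its TPM in replicate 1 and 11.5% in replicate 2 lay on transcripts of unknown type. Its retained-intron forms held 22.9% in replicate 1 and 34.5% in replicate 2. Tk1-201, the coding form, held 46.9% and 62.8%, with 5.16 and 5.18 TPM and 128 and 150 counts. The lower value of Tk1 in replicate 2 was thus not present on its coding transcript. Mcm10-201 held 46.2% and 46.0%. With posterior mean shares Mcm10-201 held only 25.1%. The share of Gins2 lay on Gins2-204 alone, from 17.7 and 39.9 counts. Mcm3-201 held 76.5% and 84.4%, with 669 and 548 counts on this form, so the lower value of Mcm3 in replicate 2 was also present on its coding transcript. Lig1 was led by Lig1-206 (944 nucleotides) at 47.3% and 41.0%, while the longer coding form Lig1-201 (3091 nucleotides) held 18.4% and 23.0%. Most of the TPM of Rfc1 lay on transcripts without a counterpart in the annotation used for types, 89.4% in replicate 1 and 94.9% in replicate 2, so its coding share is not given.

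**Figure D5:**
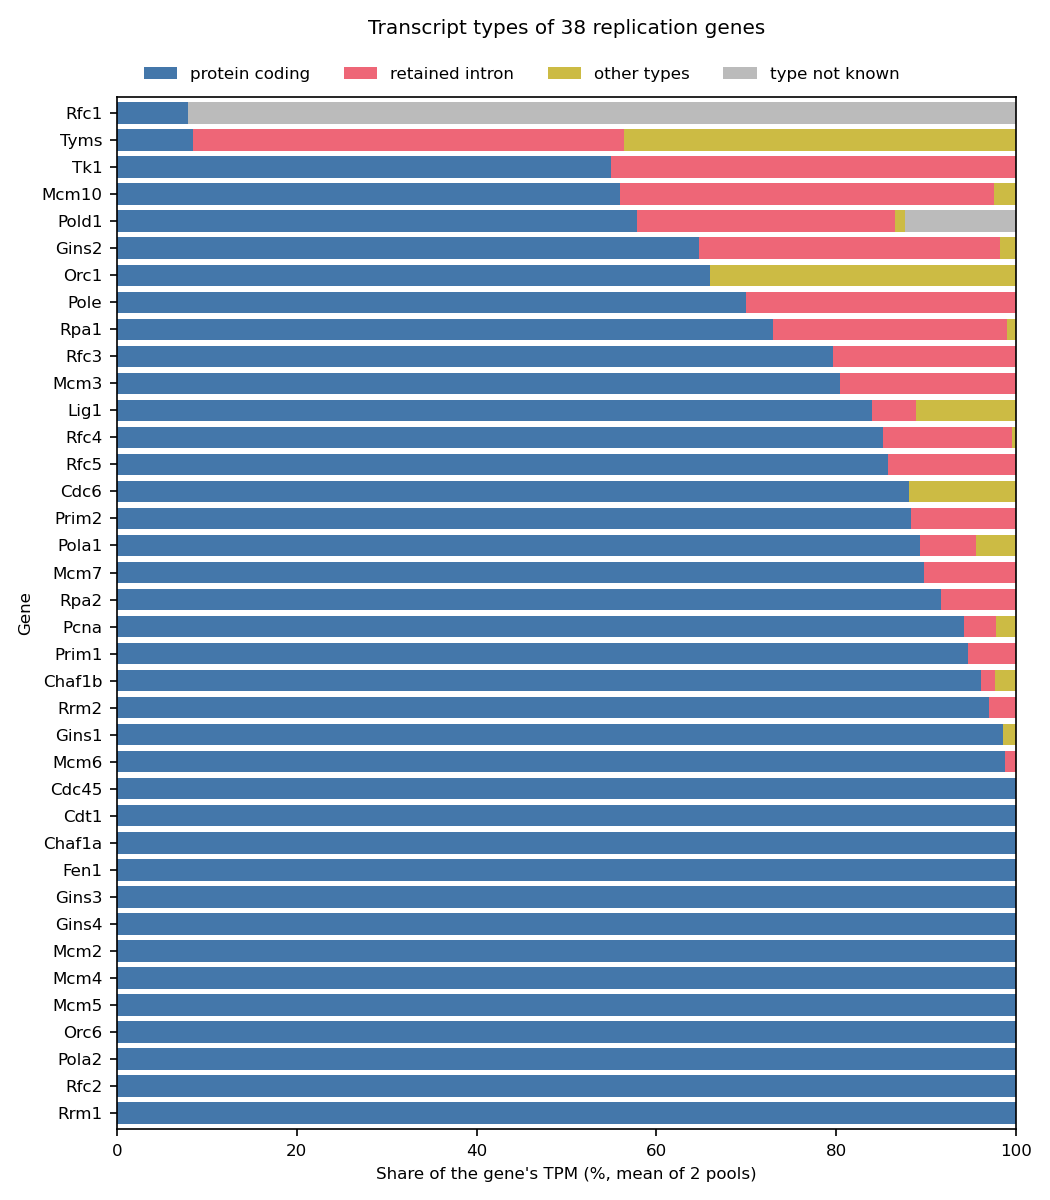
Each bar divides a gene's TPM by annotated transcript type, as the mean percent of the 2 pools. Genes with only coding transcripts annotated stand at 100% by the annotation. Tyms stands at 8.5% coding, and for Rfc1 most of the TPM is of unknown type.

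Several of the genes share sequence or position with others, which limits how surely reads can be assigned. Of the 38, 9 overlap an annotated gene with more counts, among them Cdc45 with Ufd1 (2674 and 3012 counts), Chaf1a with Ubxn6 (2909 and 3189 counts) and Rfc4 with Eif4a2 (9280 and 10555 counts), each on the opposite strand. Orc6 with Vps35 (10092 and 11349 counts) and Mcm7 with Cops6 (4819 and 5966 counts) are further cases on the opposite strand. Cdt1 (202 and 199 counts) lies within Gm20388 (498 and 639 counts) on the same strand, so strand could not separate them. Whether the counting used strand is not given in the sources used here. Without these 9 genes, 23 of 28 ratios were below 0. Orc1 overlaps the non-coding gene Gm12743, which had 37.5 and 44.9 counts, nearly as many as Orc1 itself. Of the 31-base words of the genes' transcripts, 26.8% were found in another gene for Mcm7, 23.3% for Pcna and 12% for Rrm2, with a median of 1.60% and none for 9 genes. The pseudogene Pcna-ps2 had 9.76 and 11.0 counts beside 2023 and 2190 for Pcna.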

How the data were processed

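Gene and transcript tables of 2 libraries were used. Per the deposited readme, reads were mapped to mm10 and quantified with GENCODE M4 plus spike-ins. The aligner, the quantifier and the strand setting were not given in the sources used here. Per the file headers, the deposited expected counts are estimated reads per feature without normalization. The deposited TPM and FPKM values are scaled by effective length, spike-ins included, and the isoform share is a percent of the gene's TPM, per the file headers.

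Names, coordinates (GRCm38, the assembly of mm10) and transcript types came from GENCODE M21. Rounded expected counts were scaled by TMM (edgeR 4.0.16), with 0.5 added for log2 ratios, where the mean count was at least 50. Intervals are exact conditional binomial at 95% and treat reads as independent, although no molecular identifiers were used. The calculation of ratios and intervals was checked on simulated counts that held counting error only. That check cannot show how well the intervals hold in these libraries. Transcript types were counted where at most 5% of a gene's TPM lay on unmatched transcripts. Protein sequences were not analysed here.

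The 38 genes and all lists were chosen with earlier results of these data known. Named from the lists were the 3 genes of highest mean TPM, the extreme ratios and genes below 1 TPM in both libraries. Subunits of the same complexes, Otx2, Gata3, Hoxb4, En1, Foxa2, En2 and Fabp7 were chosen after their values were seen. Alternatives were other scalings, filters, added counts, units, single libraries and a shorter promoter window.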

Additional observations from a re-analysis of the deposited data

How the results depend on the processing

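Scaling by the ERCC spike-ins in place of TMM moved the median of all genes tested to -0.59, with 98.1% of them lower in replicate 2. On that scale the median of the replication genes was -0.73, all 37 were lower by at least 0.32, 3 were 2-fold apart and 37 had an interval below equality. The shares of all genes for these counts are not given for that scale. Since the median of all genes was itself lower by more than 0.32, the counts are not particular to the replication genes. The median of the oligodendrocyte precursor markers turned to -0.29. Relative to all genes the replication genes stood at -0.14, with 30 of 37 below the median of all genes. A change of scaling shifts every gene by the same amount. Both values could therefore not differ between TMM, DESeq2 size factors, total counts and spike-ins. Posterior mean counts, which are other count estimates, also gave -0.14 and 30 of 37. Counted in FPKM the median level was 10.8 in place of 18.5 TPM, a constant factor of 0.584 to 0.586 for the 38 genes. With posterior mean TPM, 8 of the 38 levels moved by more than their SD, among them Orc1 (2.35 in place of 1.14) and Mcm10 (3.74 in place of 2.71). With the promoter window cut to the 100 bases before the start, 4 of 31 genes held an E2F match (12.9%, against 0.981% of all genes) and 2 a CHR element. Without the 9 genes overlapped by a gene with more counts, an alternative chosen after seeing the data, the median ratio was -0.11. With posterior mean shares the leading transcript was the same for 36 of the 38 genes, all but Fen1 and Orc1. The planned protein features were not run. No paired analysis was possible because the labels give 1 group. With 1 library per pool, small ratios of genes with few counts were within counting error, and the spread between pools of embryos could not be estimated.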
